A study of Homo sapiens with 15 samples.

Results

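The human genes for 10 stand-alone pseudouridine synthases, enzymes that need no guide RNA to find the uridine they modify, were followed across every group of the series. They were chosen by symbol (PUS1, PUS3, PUS7, PUS7L, PUS10, PUSL1, TRUB1, TRUB2, RPUSD1 and RPUSD3). All 10 stood in both deposited count tables, among 62703 genes in the table of HEK293T and 35595 in that of HuCCT1, and all 10 passed the low-count filter in both. A pseudouridine synthase detaches the base of a uridine inside an RNA chain, turns it and reattaches it through carbon, which gives pseudouridine. In human cells such sites lie in transfer, ribosomal, small nuclear and messenger RNAs, and the stand-alone enzymes divide them by family, sequence, fold and compartment, with several working in mitochondria. A second route, not among these 10 genes, uses H/ACA guide RNAs with the synthase dyskerin.

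RNA was sequenced from HEK293T, an embryonic kidney line that carries a viral large T antigen, and HuCCT1, a bile duct cancer line. The labels give HEK293T libraries of genotype SNRPD2KO, PUS7KO and Ctrl and HuCCT1 libraries of genotype SNRPD2KO and Ctrl, with 3 libraries in each group. The knockouts were made by CRISPR-Cas9. SNRPD2 encodes the spliceosomal protein SMD2, which the study had found in a pull-down with pseudouridine, and the comparisons ask how RNA levels differ after loss of SMD2 or PUS7. The labels do not say whether libraries of a group came from separate cultures or clones, or what the Ctrl cells received, so p-values measure the spread between these libraries, which may be technical. A frameshift need not lower the RNA of its gene, and no sequence change can be read from gene counts. In these bulk samples fewer expressing cells cannot be told apart from less RNA per cell.

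SNRPD2 RNA went against its label. It averaged 280.4 ± 31.9 CPM (counts scaled to library size with TMM factors; SD, n = 3) in HEK293T libraries labelled SNRPD2KO, 260.5 ± 22.6 in those labelled PUS7KO and 182 ± 13.6 in Ctrl. In HuCCT1 it averaged 288 ± 29.4 CPM in libraries labelled SNRPD2KO and 155 ± 7.30 in Ctrl. The labels assign the columns of the deposited tables that begin with C to SNRPD2KO, P to PUS7KO and S to Ctrl. In HEK293T 8467 genes passed edgeR's test between SNRPD2KO and Ctrl and 7839 between PUS7KO and Ctrl (adjusted p under 0.05). Between SNRPD2KO and PUS7KO 758 passed. Over 17 alternative fits SNRPD2 passed in both comparisons with Ctrl and not between SNRPD2KO and PUS7KO (log2 fold change 0.00089 to 0.20). Ctrl thus stood apart from both other HEK293T groups, with the lowest SNRPD2. Whether the SNRPD2KO and Ctrl labels were exchanged cannot be settled by these counts and was not tested. If they were, every direction of SNRPD2KO against Ctrl given below would turn round, and PUS7KO would have been set against SNRPD2KO libraries. The comparison of SNRPD2KO with PUS7KO would then be one of Ctrl with PUS7KO. Total counts were 7944276 to 11270267 in HEK293T and 13776166 to 16795618 in HuCCT1, and small noncoding RNAs took 28.2% to 35.7% of counts in HEK293T and 2.19% to 4.11% in HuCCT1. The summed level of 8 bile duct markers was 11877 to 12824 CPM in HuCCT1 SNRPD2KO and 12196 to 12409 in Ctrl, against 214 to 372 CPM in HEK293T, where KRT7 and KRT19 were near 0. Of 8 HEK293T markers 6 averaged at least 1 CPM in HEK293T, with PAX2 (0.345 CPM) and LHX1 (0.0116 CPM) near 0, and the list summed to 221 to 248 CPM in SNRPD2KO, 266 to 287 in PUS7KO and 145 to 210 in Ctrl. The same markers in HuCCT1 summed to 105 to 128 CPM in SNRPD2KO and 44.8 to 53.4 in Ctrl. Leukocyte markers summed to 1.25 to 3.65 CPM in HEK293T and 0.115 to 0.508 CPM in HuCCT1. A list of 6 fibroblast markers summed to 9.57 to 13.2 CPM in HEK293T SNRPD2KO, 11.9 to 13.8 in PUS7KO and 6.75 to 6.93 in Ctrl, with COL1A2 at 0 in all 9 libraries, and to 20.4 to 22.1 CPM in HuCCT1 SNRPD2KO and 10.8 to 12.6 in Ctrl. The part of these markers in the results was not tested.

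RefSeq promoter sequences on GRCh38.p14, from 250 bases before to 50 bases after the start, matched 7 of the 10 genes. The 4 below belong to PUS7, the targeted synthase, to RPUSD3 and TRUB2, whose products act together in mitochondria and whose RNAs were both higher in HEK293T SNRPD2KO and PUS7KO, and to TRUB1, which was lower in SNRPD2KO of both lines. PUS7 is at chr7:105522222-105522521 (minus strand), RPUSD3 at chr3:9843959-9844258 (minus), TRUB2 at chr9:128322398-128322697 (minus) and TRUB1 at chr10:114937945-114938244 (plus). The RPUSD3 start lies 594 bases from the start of the gene in the count tables. Capitals mark matches on either strand to 4 searched motifs, the ETS motif CCGGAAG, the cyclic AMP element TGACGTCA, the ATF4 element TGATGNAA and the GC box GGGCGG.
PUS7: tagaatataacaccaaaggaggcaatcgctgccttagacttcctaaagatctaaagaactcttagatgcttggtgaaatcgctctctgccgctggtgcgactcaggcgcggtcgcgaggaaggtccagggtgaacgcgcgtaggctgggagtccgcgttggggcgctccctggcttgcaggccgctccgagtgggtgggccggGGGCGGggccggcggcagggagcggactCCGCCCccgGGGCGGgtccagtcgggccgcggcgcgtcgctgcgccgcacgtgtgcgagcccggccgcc
RPUSD3: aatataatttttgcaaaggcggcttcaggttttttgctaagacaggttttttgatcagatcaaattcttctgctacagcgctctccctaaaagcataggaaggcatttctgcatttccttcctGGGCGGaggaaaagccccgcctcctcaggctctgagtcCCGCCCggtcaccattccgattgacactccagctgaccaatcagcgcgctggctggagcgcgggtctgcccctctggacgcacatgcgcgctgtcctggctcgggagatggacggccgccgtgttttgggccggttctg
TRUB2: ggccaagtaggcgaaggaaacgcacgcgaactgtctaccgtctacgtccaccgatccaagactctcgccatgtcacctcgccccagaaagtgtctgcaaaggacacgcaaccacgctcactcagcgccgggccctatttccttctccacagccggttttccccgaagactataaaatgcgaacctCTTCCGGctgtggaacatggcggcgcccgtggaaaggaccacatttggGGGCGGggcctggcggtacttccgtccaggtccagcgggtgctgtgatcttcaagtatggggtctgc
TRUB1: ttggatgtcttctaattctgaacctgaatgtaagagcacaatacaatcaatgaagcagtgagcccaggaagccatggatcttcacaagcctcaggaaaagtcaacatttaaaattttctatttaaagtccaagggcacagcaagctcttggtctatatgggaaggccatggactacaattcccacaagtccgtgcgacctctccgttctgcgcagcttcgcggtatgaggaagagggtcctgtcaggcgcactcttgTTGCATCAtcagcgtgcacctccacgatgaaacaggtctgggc

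The PUS7 window held 3 GC boxes and was 68.3% G and C, where the median of 35116 promoters was 58.7%. The RPUSD3 window held 2 GC boxes. Among the 7 matched promoters 5 held a GC box, which 15786 of the 35116 promoters hold. TRUB2 held the single ETS match among the 7, a motif found in 10.3% of promoters, and TRUB1 the single ATF4 match, found in 3.62%. None of the 7 held the cyclic AMP element, found in 1.85%. These letter matches describe the windows and show no binding.

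Levels between genes are compared per kilobase of exon (CPM divided by the merged exon length in GENCODE 29). In HEK293T Ctrl, TRUB1, which modifies the T loop of transfer RNAs, had the highest level at 7.98 ± 0.640 CPM per kb (SD, n = 3), and its range overlapped that of PUS3 (7.75 ± 0.0786), an enzyme of the transfer RNA anticodon arm. From RPUSD3 (6.35 ± 0.167) through PUSL1, PUS7 (5.998 ± 0.115), TRUB2 and PUS1 to RPUSD1 (5.13 ± 0.437) every neighbour in the order overlapped the next. PUS7L (2.08 ± 0.198) and PUS10 (1.02 ± 0.268) stood apart at the low end, and they were the lowest of the 10 in all 5 groups. The place of PUS7L in HEK293T depends on its merged exon length of 14037 bases, the longest of the 10. By CPM it averaged 29.2 in HEK293T Ctrl, above PUS7 at 26.5, while in HuCCT1 it stood above PUS10 alone. In libraries labelled SNRPD2KO and PUS7KO RPUSD3 was first, at 19.7 ± 2.36 and 18.7 ± 2.205 CPM per kb, above the range of the next gene, PUS3 (10.97 ± 0.211 and 10.8 ± 1.31). In HuCCT1 the order was led by RPUSD1, at 13.9 ± 2.204 CPM per kb in SNRPD2KO and 19.5 ± 0.821 in Ctrl, followed by PUSL1 (12.6 ± 0.600 and 14.7 ± 0.335). RPUSD1 and PUSL1 overlapped in SNRPD2KO and did not overlap in Ctrl. The tables of the lines were normalized separately, so levels across lines carry no test. PUS7 gave 4.56% to 6.51% of the summed CPM per kb of the 10 genes in PUS7KO libraries and 10.8% to 11.3% in Ctrl libraries. RPUSD3 gave 24.5% to 27.7% of that sum in HEK293T SNRPD2KO, 26.1% to 30.9% in PUS7KO and 11.6% to 11.8% in Ctrl.

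**Figure D1:**
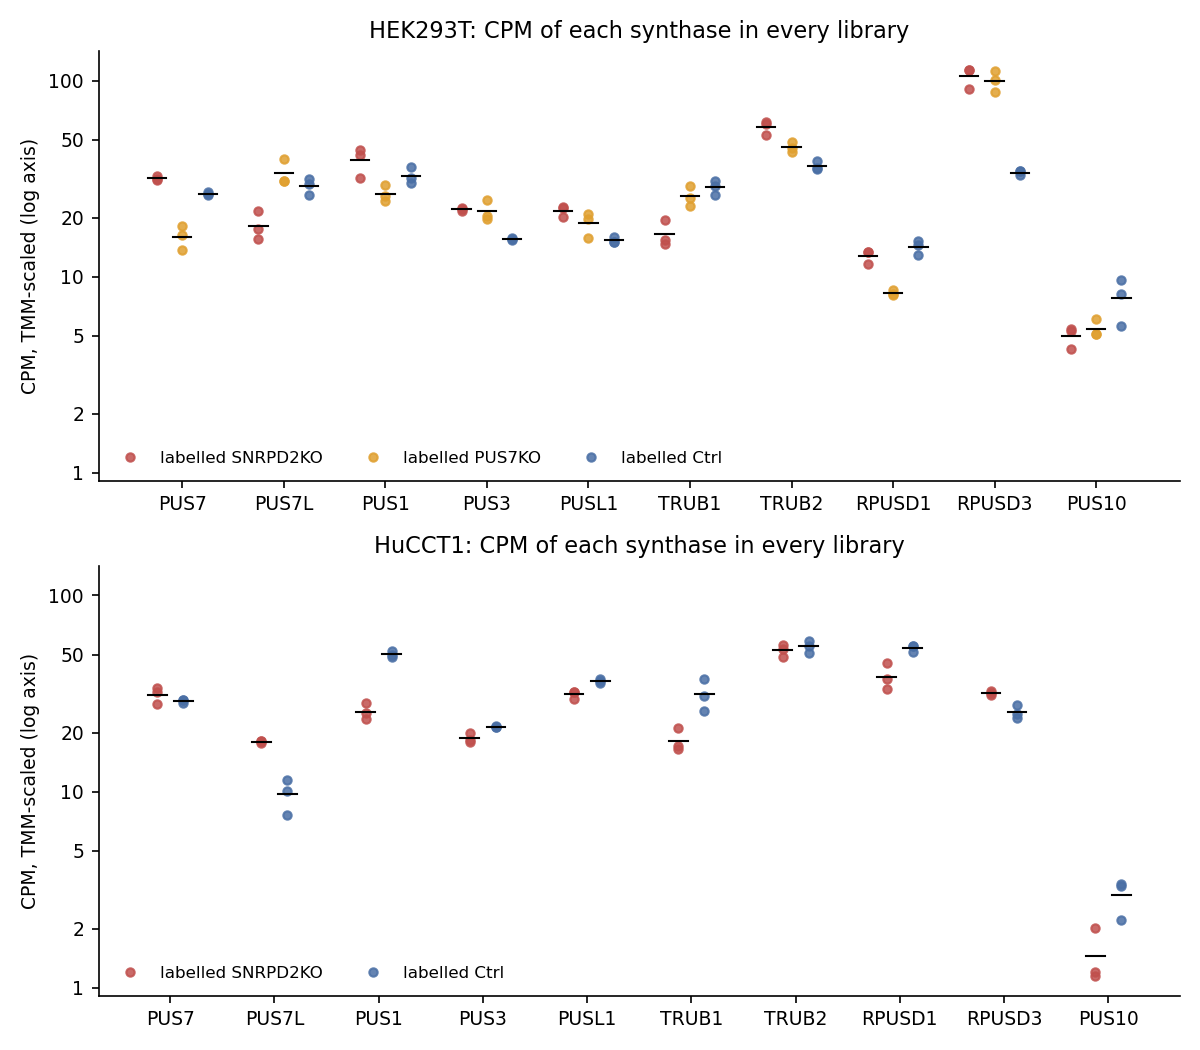
CPM on a log axis of each synthase in every library of HEK293T (top) and HuCCT1 (bottom), with a bar at each group mean (n = 3). RPUSD3 in HEK293T stands at 87.8 to 113 CPM in libraries labelled SNRPD2KO and PUS7KO and at 32.9 to 34.5 CPM in Ctrl, and PUS7 is lowest in PUS7KO.

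The main differences among the 10 synthases were higher RPUSD3, TRUB2 and PUS3 in both HEK293T groups labelled as knockouts against Ctrl, lower PUS7 and RPUSD1 in PUS7KO, and lower PUS7L and TRUB1 in SNRPD2KO. The PUS7L and TRUB1 differences did not pass with a GC trend removed (-0.00 and -0.20). In that refit 4 of the 10, PUS7, PUS3, TRUB2 and RPUSD3, were higher in SNRPD2KO and 1, RPUSD1, was lower. The calls of PUSL1 and PUS10 were lost there, and those of PUS7 and RPUSD1 were gained. In HuCCT1 SNRPD2KO, PUS1, PUS10, TRUB1, RPUSD1 and PUSL1 were lower than in Ctrl and PUS7L and RPUSD3 higher. Each comparison used edgeR's quasi-likelihood test with Benjamini-Hochberg adjustment over all genes tested, and a gene was called at an adjusted p under 0.05. Between HEK293T SNRPD2KO and Ctrl 7 of the 10 were called, 4 higher and 3 lower, where 53.3% of 15882 genes were called, 26.9% higher and 26.4% lower. Between PUS7KO and Ctrl 6 of 10 were called, 3 in each direction, where 49.4% of genes were called, 25.6% higher and 23.8% lower. Both shares lie near those of all genes, and the comparisons share the same Ctrl libraries. Between HuCCT1 SNRPD2KO and Ctrl 7 of 10 were called, 2 higher and 5 lower, where 57.2% of 15007 genes were called, 28.8% higher and 28.4% lower. The median log2 fold change of the 10 was 0.26, 0.03 and -0.21 in these comparisons, in that order, and over all genes tested 0.02, 0.01 and 0.00.

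**Figure D2:**
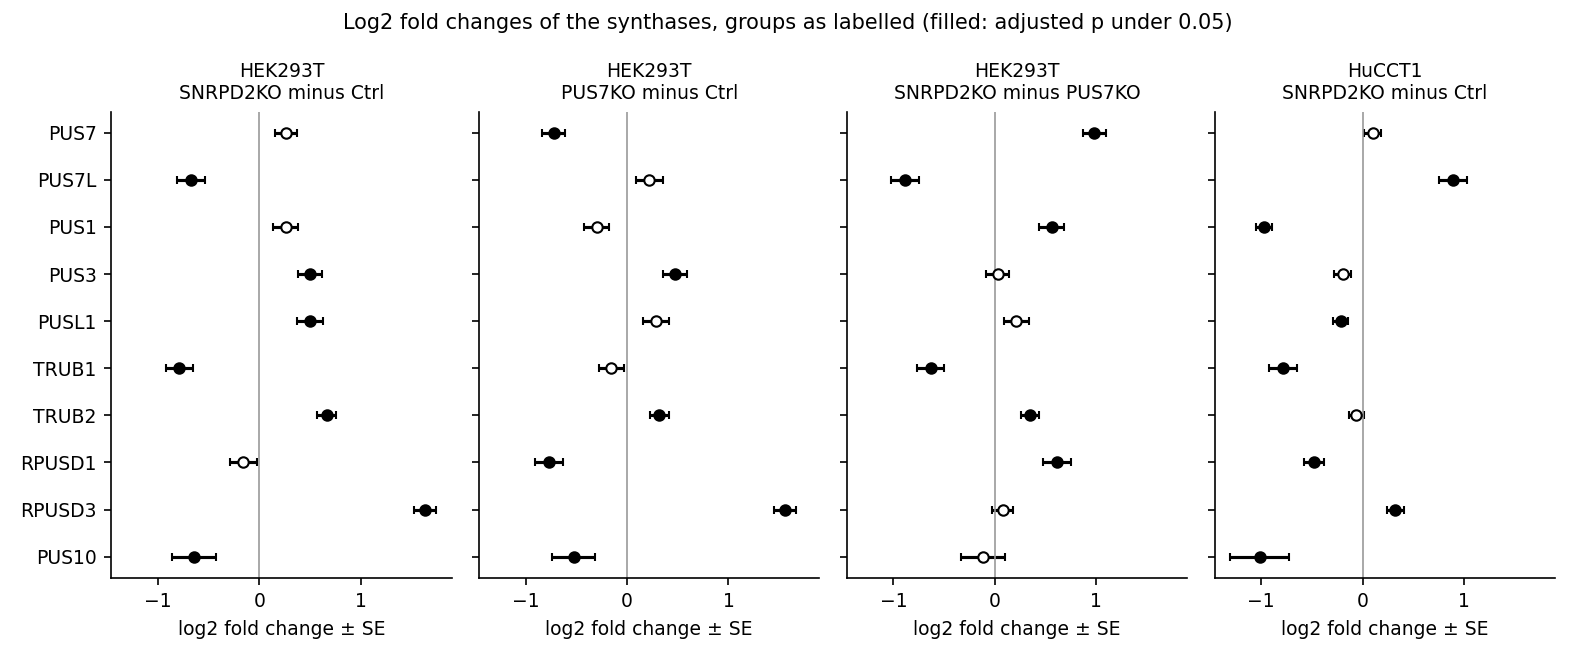
Log2 fold change ± SE of each synthase in the 3 HEK293T comparisons and in HuCCT1, groups as labelled (n = 3 per group), with filled points at an adjusted p under 0.05 by edgeR. RPUSD3 lies at 1.63 and 1.56 against HEK293T Ctrl and at 0.32 in HuCCT1, and PUS7 at 0.98 between SNRPD2KO and PUS7KO.

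Between SNRPD2KO and PUS7KO libraries of HEK293T, a comparison that uses no Ctrl library in its fold change, PUS7, PUS1, RPUSD1 and TRUB2 were higher in SNRPD2KO and PUS7L and TRUB1 lower. The 6 of 10 called stood beside 4.77% of all genes called, 1.57% higher and 3.20% lower, and the median was 0.14 for the 10 and 0.01 for all genes. These 6 include PUS7, the gene targeted in PUS7KO. In a fit of protein-coding genes alone 7.55% of genes were called, with 4 synthases higher and 2 lower. The ranges of the groups did not overlap for 6 of the 10, against 25.2% of all genes. The log2 fold changes were 0.98 for PUS7 (SE 0.11), -0.89 for PUS7L (0.14), -0.63 for TRUB1 (0.13), 0.61 for RPUSD1 (0.14), 0.56 for PUS1 (0.13) and 0.35 for TRUB2 (0.09), with adjusted p from 0.00183 for PUS7 to 0.0385 for TRUB2. PUS3, PUSL1, RPUSD3 and PUS10 did not pass, with 95% intervals of -0.19 to 0.24, -0.03 to 0.45, -0.12 to 0.27 and -0.55 to 0.31. Across all genes the fold change of this comparison followed GC content (Spearman rho 0.49 over 15406 genes, a description across genes). With a per-library GC trend removed, PUS7 (1.09, adjusted p = 9.64e-05) and PUS7L (-0.47, adjusted p = 0.0405) passed and the other 4 did not, and 127 genes passed in all, 65 of them higher, in place of 758 with 249 higher. The calls also rested on single libraries. Without SNRPD2KO replicate 1 or 2, or without PUS7KO replicate 2, PUS1, TRUB1, TRUB2 and RPUSD1 did not pass and 22, 29 and 32 genes passed in all, without PUS7KO replicate 1 TRUB2 and RPUSD1 did not pass and 285 genes did, and without SNRPD2KO replicate 3 1891 genes passed.

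PUS7 (ENSG00000091127.14, chromosome 7, 105439661 to 105522271, minus strand, hg38) belongs to the TruD family and modifies transfer RNAs and messenger RNAs at a short uridine-containing motif. No other annotated gene overlaps it. In HEK293T it had 31.1, 31.3 and 32.8 CPM in libraries labelled SNRPD2KO, 13.7, 18.1 and 16.3 CPM in PUS7KO, and 26.5, 26.0 and 27.0 CPM in Ctrl. Every PUS7KO library lay below every other HEK293T library, and every SNRPD2KO library above every Ctrl library. Between PUS7KO and Ctrl the log2 fold change was -0.72 (SE 0.11, adjusted p = 6.72e-05), and it stayed between -0.81 and -0.60 in all 17 alternative settings. PUS7KO libraries thus still held 143 to 217 counts of PUS7, against 228 to 247 in Ctrl. Between SNRPD2KO and Ctrl it was 0.26, with a 95% interval of 0.05 to 0.47, and did not pass (adjusted p = 0.0532). It passed with the GC trend removed (0.43, adjusted p = 0.00163), and the adjusted p ran from 0.00163 to 0.136 over the alternatives. In HuCCT1 PUS7 had 27.9, 33.7 and 32.1 CPM in SNRPD2KO and 28.4, 29.5 and 29.4 CPM in Ctrl. Those groups overlapped, and the log2 fold change was 0.10 with a 95% interval of -0.07 to 0.27 (adjusted p = 0.336).

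The genes whose log2 CPM was most like that of PUS7 over the 9 HEK293T libraries, among 10536 genes, were CPNE1 (Pearson r 0.935), URB2 (0.933), TRMO (0.926), MIEF1 (0.916) and ZNF503-AS2 (0.913). TRMO, a transfer RNA methyltransferase, averaged 17.4 CPM in SNRPD2KO, 11.2 in PUS7KO and 15.2 in Ctrl. Over the 6 HuCCT1 libraries, among 9943 genes, they were POLR3GL (0.991), HIF1AN (0.985), CTNNA1 (0.984), OTUD7B (0.981) and SLC15A3 (0.979). None of the 5 genes of one line was among the 5 of the other. These are descriptions over few libraries that share depth and groups.

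PUS7L (ENSG00000129317.15, chromosome 12, 43718992 to 43758793) encodes the other TruD enzyme, a paralog of PUS7 with fewer known targets. It had 17.5, 15.6 and 21.6 CPM in HEK293T SNRPD2KO, 30.7, 40.1 and 30.8 CPM in PUS7KO, and 29.8, 26.1 and 31.6 CPM in Ctrl. All SNRPD2KO libraries lay below all others, while PUS7KO and Ctrl overlapped. Between SNRPD2KO and Ctrl the log2 fold change was -0.67 (SE 0.14, adjusted p = 0.000698). PUS7L is among the genes poorest in G and C (34.2%, percentile 0.902 of genes tested). With the GC trend removed its fold change between SNRPD2KO and Ctrl was -0.00 (adjusted p = 0.976). Between PUS7KO and Ctrl it was 0.22 (95% interval -0.04 to 0.48, adjusted p = 0.19) as counted and 0.47 (adjusted p = 0.000881) with the trend removed. In HuCCT1 PUS7L had 17.7, 18.2 and 18.1 CPM in SNRPD2KO and 7.56, 10.1 and 11.5 CPM in Ctrl, without overlap, a log2 fold change of 0.89 (SE 0.14, adjusted p = 0.000203). There the GC trend moved it to 0.71 (adjusted p = 0.000731). The start of PUS7L lies 151 bases from that of IRAK4, an innate immune kinase read from the other strand. IRAK4 gave 0.61 between HEK293T SNRPD2KO and Ctrl (adjusted p = 0.00105), 0.69 between PUS7KO and Ctrl (0.00044) and 0.70 in HuCCT1 (0.00492), so it was higher where PUS7L was lower in HEK293T SNRPD2KO.

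RPUSD3 (ENSG00000156990.14, chromosome 3, 9837849 to 9844602), an RluA family enzyme that belongs to a mitochondrial module needed for the large ribosomal RNA and is known for modifying mitochondrial messenger RNAs, moved most of the 10 in HEK293T. It had 113, 113 and 91.0 CPM in libraries labelled SNRPD2KO, 101, 87.8 and 111 CPM in PUS7KO, and 32.9, 34.5 and 34.4 CPM in Ctrl. Both knockout-labelled groups lay above Ctrl with no overlap and overlapped each other. The log2 fold change against Ctrl was 1.63 (SE 0.11, adjusted p = 7.76e-09) for SNRPD2KO and 1.56 (SE 0.11, adjusted p = 1.60e-08) for PUS7KO, and with the GC trend removed 1.43 and 1.44. Over all 17 alternatives it stayed between 1.43 and 1.75 for SNRPD2KO and between 1.44 and 1.66 for PUS7KO. The lowest SNRPD2KO value came from replicate 3 and the lowest PUS7KO value from replicate 2, the libraries with the lowest share of small noncoding RNAs in their groups (30.01% and 28.2%), while the raw counts ran from 1025 to 1070 over these 6 libraries and from 302 to 307 in Ctrl. In HuCCT1 it had 31.2, 32.5 and 31.9 CPM in SNRPD2KO and 23.7, 25.0 and 27.8 CPM in Ctrl, again without overlap but with a smaller log2 fold change of 0.32 (SE 0.08, adjusted p = 0.00523).

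The whole of RPUSD3, 6754 bases, lies on the minus strand inside TTLL3, a tubulin glycylase gene on the plus strand. TTLL3 averaged 5.62 ± 0.639 CPM in HEK293T SNRPD2KO, 6.44 ± 0.195 in PUS7KO and 11.6 ± 1.27 in Ctrl (SD, n = 3). Its log2 fold changes of -1.04 and -0.85 ran opposite to those of RPUSD3 (adjusted p = 5.21e-05 and 0.000342), and in HuCCT1 it gave 0.20 (adjusted p = 0.603). The kit marks the strand of an RNA, and whether counting used that strand is not given in the sources used here, without which reads of the pair cannot be told apart.

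TRUB2 (ENSG00000167112.10, chromosome 9, 128305159 to 128322447), a TruB enzyme of the same mitochondrial module, had 60.3, 61.2 and 53.1 CPM in HEK293T SNRPD2KO, 45.3, 43.3 and 48.7 CPM in PUS7KO, and 35.7, 35.5 and 38.8 CPM in Ctrl. The 3 groups formed separate steps without overlap, highest in SNRPD2KO and lowest in Ctrl. Log2 fold changes against Ctrl were 0.66 (SE 0.09, adjusted p = 1.55e-05) for SNRPD2KO and 0.32 (SE 0.09, adjusted p = 0.00896) for PUS7KO, and with the GC trend removed 0.48 (0.000137) and 0.21 (0.0474). In HuCCT1 TRUB2 had 48.5, 55.7 and 53.5 CPM in SNRPD2KO and 55.2, 51.1 and 58.6 CPM in Ctrl, with overlap and a 95% interval of -0.21 to 0.08 for the log2 fold change. COQ4, a gene of coenzyme Q synthesis that starts 97 bases away on the other strand, averaged 33.4 ± 3.49 CPM in HEK293T SNRPD2KO, 29.9 ± 4.19 in PUS7KO and 14.2 ± 1.28 in Ctrl (SD, n = 3). It was also higher in HuCCT1 SNRPD2KO (0.55, adjusted p = 0.00115), where TRUB2 did not pass. TRUB2 shares 10965 bases with SWI5, a DNA repair gene on the other strand, which gave 0.93 and 0.65 in HEK293T (adjusted p = 2.29e-05 and 0.000785) and 0.09 in HuCCT1 (adjusted p = 0.522).

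The TruA enzymes PUS1, PUS3 and PUSL1 moved differently in the lines. PUS1 (ENSG00000177192.14, chromosome 12, 131929200 to 131945896) modifies nuclear and mitochondrial transfer RNAs, and its inherited loss causes a myopathy with anaemia. It had 41.6, 44.2 and 32.0 CPM in HEK293T SNRPD2KO, 29.5, 24.5 and 25.7 CPM in PUS7KO, and 32.1, 36.2 and 29.9 CPM in Ctrl. SNRPD2KO overlapped Ctrl, and PUS7KO lay below both. Neither difference from Ctrl passed, with 0.26 for SNRPD2KO (95% interval 0.01 to 0.50, adjusted p = 0.0908) and -0.30 for PUS7KO (-0.55 to -0.05, adjusted p = 0.0597). The first passed without SNRPD2KO replicate 3 (0.41, adjusted p = 0.00636) or without the low-count filter (0.34, adjusted p = 0.0180). The second stayed uncalled in 9 of 17 alternatives and passed in the rest. Among these were the GC trend removed (-0.46, adjusted p = 0.00296) and DESeq2 (-0.33, adjusted p = 0.0498). In HuCCT1 PUS1 had 25.1, 23.4 and 28.2 CPM in SNRPD2KO and 52.2, 48.9 and 49.7 CPM in Ctrl. That clear separation gave a log2 fold change of -0.97 (SE 0.08, adjusted p = 1.71e-06), which stayed between -1.03 and -0.90 over the 16 alternatives.

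PUS3 (ENSG00000110060.9, chromosome 11, 125893485 to 125903221) had 22.4, 22.1 and 21.6 CPM in HEK293T SNRPD2KO, 24.6, 20.5 and 19.8 CPM in PUS7KO, and 15.8, 15.5 and 15.5 CPM in Ctrl. Both knockout-labelled groups lay above Ctrl, by 0.50 (SE 0.12, adjusted p = 0.00162) and 0.47 (SE 0.12, adjusted p = 0.00279) on the log2 scale, and all 17 alternatives kept both calls. In HuCCT1 it had 18.3, 19.8 and 17.9 CPM in SNRPD2KO and 21.3, 21.4 and 21.5 CPM in Ctrl. These groups did not overlap, and the fold change of -0.20 did not pass (95% interval -0.36 to -0.03, adjusted p = 0.0643). PUS3 shares 7162 bases with HYLS1, a centriole gene on the other strand, which did not pass in HEK293T (0.11 and -0.13) and was higher in HuCCT1 SNRPD2KO (0.55, adjusted p = 0.00173).

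PUSL1 (ENSG00000169972.13, chromosome 1, 1308597 to 1311677), a mitochondrial member of the family, had 22.6, 22.3 and 20.1 CPM in HEK293T SNRPD2KO, 19.7, 15.7 and 20.9 CPM in PUS7KO, and 15.9, 15.0 and 15.1 CPM in Ctrl. SNRPD2KO lay above Ctrl (0.50, SE 0.13, adjusted p = 0.00306), and PUS7KO overlapped it (0.29, 95% interval 0.04 to 0.54, adjusted p = 0.0697). With the GC trend removed neither difference passed (0.12, adjusted p = 0.368, and 0.08, adjusted p = 0.558), and without PUS7KO replicate 2 the second did (0.42, adjusted p = 0.0127). In HuCCT1 PUSL1 had 32.3, 29.7 and 32.4 CPM in SNRPD2KO and 37.4, 35.7 and 36.7 CPM in Ctrl. SNRPD2KO was lower without overlap (-0.22, SE 0.07, adjusted p = 0.0201), a call lost without SNRPD2KO replicate 2 (-0.17, adjusted p = 0.0948), Ctrl replicate 1 (adjusted p = 0.0715) or Ctrl replicate 3 (adjusted p = 0.0581).

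TRUB1 (ENSG00000165832.6, chromosome 10, 114938195 to 114977676) had 14.7, 15.4 and 19.5 CPM in HEK293T SNRPD2KO, 25.2, 29.1 and 22.9 CPM in PUS7KO, and 26.3, 30.8 and 29.1 CPM in Ctrl. SNRPD2KO lay below both other groups, which overlapped. The log2 fold change against Ctrl was -0.79 for SNRPD2KO (SE 0.13, adjusted p = 9.27e-05) and -0.15 for PUS7KO (95% interval -0.40 to 0.09). TRUB1 is also poor in G and C (35.5%, percentile 2.39). With the GC trend removed the SNRPD2KO value was -0.20 and did not pass (adjusted p = 0.119). In HuCCT1 TRUB1 had 17.1, 21.0 and 16.4 CPM in SNRPD2KO and 37.4, 25.8 and 30.7 CPM in Ctrl. It was lower there without overlap, with a log2 fold change of -0.78 as counted (SE 0.14, adjusted p = 0.000591) and -0.95 with the GC trend removed (adjusted p = 0.000186).

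PUS10 (ENSG00000162927.14, chromosome 2, 60940222 to 61018259), the lone member of its family, modifies transfer RNAs and takes part in microRNA processing in the nucleus. It was the least counted of the 10, with 40, 49 and 62 counts in HEK293T SNRPD2KO, 64, 61 and 49 in PUS7KO, and 90, 49 and 72 in Ctrl. The corresponding CPM values were 4.29, 5.39 and 5.29 in SNRPD2KO, 6.11, 5.09 and 5.10 in PUS7KO, and 9.65, 5.59 and 8.18 in Ctrl. SNRPD2KO lay just below Ctrl, and PUS7KO overlapped it. The log2 fold changes were -0.64 (SE 0.21, adjusted p = 0.0177) and -0.52 (SE 0.21, adjusted p = 0.0481), and with the GC trend removed PUS10 gave 0.01 and -0.27, neither of which passed (adjusted p = 0.984 and 0.3). The PUS7KO call was kept in 5 of 17 alternatives. Other settings that lost it included leaving out any 1 PUS7KO library (adjusted p from 0.0557 to 0.127), Ctrl replicate 1 (0.235) or 3 (0.115), and DESeq2 (0.0621). The SNRPD2KO call was also lost without SNRPD2KO replicate 1 (adjusted p = 0.0764), Ctrl replicate 1 (0.106) or Ctrl replicate 3 (0.0508). In HuCCT1 PUS10 had 20, 34 and 19 counts in SNRPD2KO and 35, 54 and 45 in Ctrl, or 1.15, 2.02 and 1.21 CPM in SNRPD2KO and 2.22, 3.29 and 3.37 CPM in Ctrl. The fold change there was -1.01 (SE 0.29, adjusted p = 0.0117), and it passed in all 16 alternatives.

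RPUSD1 (ENSG00000007376.8, chromosome 16, 784974 to 788397), an RluA enzyme whose targets are little known, had 13.3, 13.3 and 11.6 CPM in HEK293T SNRPD2KO, 8.60, 8.18 and 8.12 CPM in PUS7KO, and 12.9, 14.5 and 15.2 CPM in Ctrl. PUS7KO lay below both other groups, which overlapped each other. The log2 fold change was -0.77 for PUS7KO (SE 0.14, adjusted p = 0.000196) and -0.16 for SNRPD2KO (95% interval -0.42 to 0.10). RPUSD1 is the richest of the 10 in G and C (66.6%, percentile 98.3), and with the GC trend removed these were -0.99 (adjusted p = 1.39e-05) and -0.58 (adjusted p = 0.00136). In HuCCT1 it had 45.2, 33.2 and 37.3 CPM in SNRPD2KO and 55.0, 55.5 and 51.3 CPM in Ctrl, a log2 fold change of -0.48 (SE 0.10, adjusted p = 0.00162) without overlap. CHTF18, a gene of sister chromatid cohesion that overlaps its first 352 bases on the other strand, was higher in HuCCT1 SNRPD2KO (1.21, adjusted p = 2.17e-06). CHTF18 was also higher in HEK293T SNRPD2KO (0.37, adjusted p = 0.0142), a value that turned to -0.03 with the GC trend removed.

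The comparisons of SNRPD2KO with Ctrl in the 2 lines were set against each other by testing the difference of the fold changes, HuCCT1 minus HEK293T, over the 12 SNRPD2KO and Ctrl libraries. For 6 of the 10 synthases the lines differed, 1 higher and 5 lower in HuCCT1, where 40.7% of 17617 genes differed, 19.8% higher and 20.9% lower. PUS7L moved in opposite directions, at 0.89 in HuCCT1 and -0.67 in HEK293T, a difference of 1.52 (SE 0.21, adjusted p = 1.31e-05). RPUSD3 differed by -1.35 (SE 0.13, adjusted p = 2.18e-07), being higher than Ctrl in both lines but less so in HuCCT1. PUS1 differed by -1.28 (SE 0.16, adjusted p = 4.32e-06), with a fall in HuCCT1 alone passing its own test. TRUB2 (-0.77), PUSL1 (-0.76) and PUS3 (-0.74) also differed, and each of these 6 passed in all 22 alternatives. PUS7 (-0.21, 95% interval -0.44 to 0.03), TRUB1 (-0.04, -0.44 to 0.36), RPUSD1 (-0.37, -0.69 to -0.04) and PUS10 (-0.41, -1.15 to 0.33) did not pass. With the GC trend removed PUS7 (-0.36, adjusted p = 0.0202), TRUB1 (-0.75, adjusted p = 0.00434) and PUS10 (-1.18, adjusted p = 0.0172) passed too, so that 8 synthases were lower. In that fit 38.9% of 17617 genes were called, 3425 of 6849 higher. An exchange of the labels in both lines would turn the sign of all these values and keep their size.

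**Figure D3:**
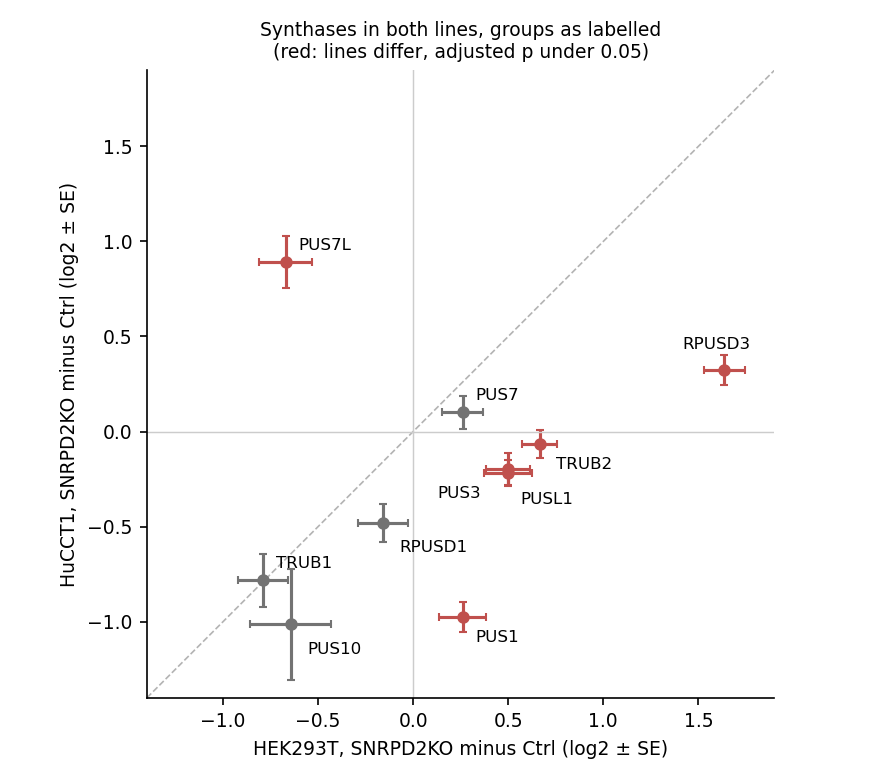
Log2 fold change ± SE between SNRPD2KO and Ctrl of each synthase in HuCCT1 (vertical) against HEK293T (horizontal), with equal values on the dashed line. PUS7L at 0.89 and -0.67 and PUS1 at -0.97 and 0.26 lie far from that line, and TRUB1 at -0.78 and -0.79 lies on it.

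The HEK293T fold changes were set against GC content. Across 15406 genes with a known GC content, the log2 fold change correlated with it at a Spearman rho of 0.36 between SNRPD2KO and Ctrl and 0.18 between PUS7KO and Ctrl, and at -0.02 across 14574 genes in HuCCT1. Of the 5 synthases over 50% G and C 4 had a positive fold change between HEK293T SNRPD2KO and Ctrl (median 0.50), and of the 5 under 50% 2 did (median -0.64). Between PUS7KO and Ctrl 3 of the 5 over 50% were positive (median 0.29) and 2 of the 5 under 50% (median -0.15). Removing the trend left 5 of the 10 called between SNRPD2KO and Ctrl, where 51.0% of all genes were called in the same fit, with PUS7, PUS3, TRUB2 and RPUSD3 higher and RPUSD1 lower, and moved the median of the 10 to 0.06. RPUSD3, TRUB2 and PUS3 kept their calls with and without the trend, and the calls of PUS7L, TRUB1, PUSL1 and PUS10 rested on keeping it. The part of GC content in these differences was not tested beyond this refit. Between PUS7KO and Ctrl 7 of the 10 were called with the trend removed, 4 higher and 3 lower, beside 50.4% of all genes.

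**Figure D4:**
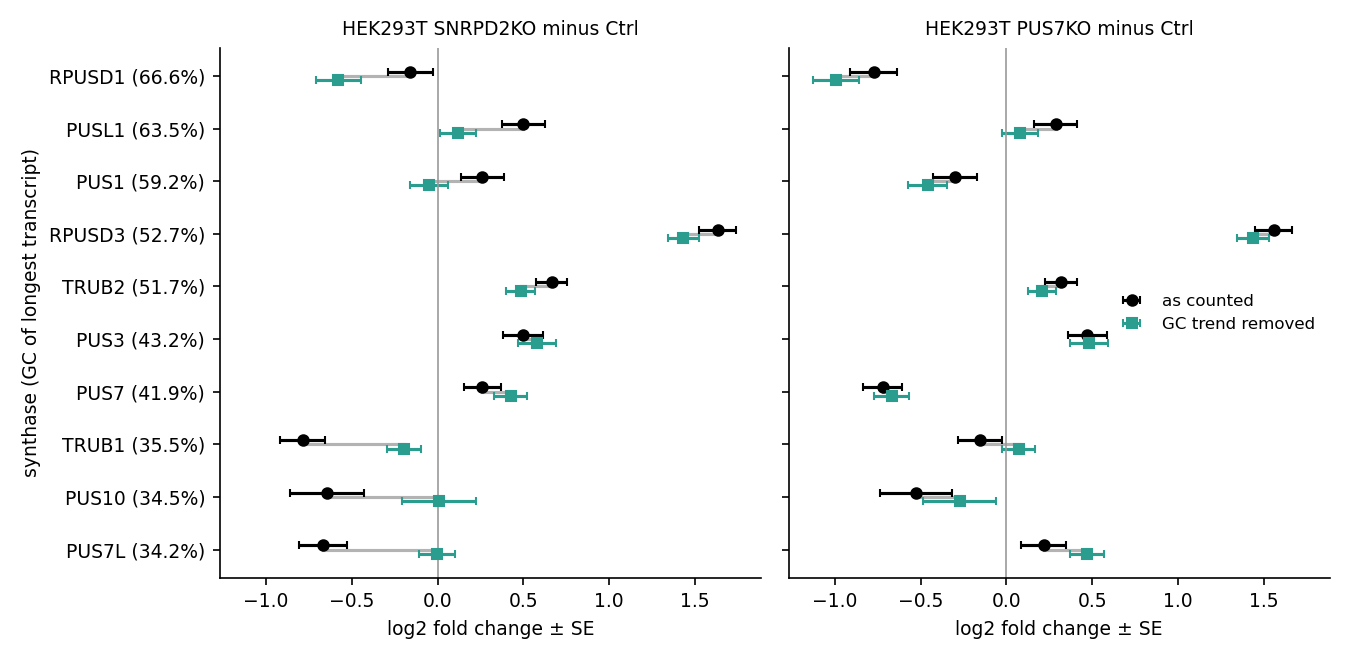
Log2 fold change ± SE of the synthases, ordered by the GC content of the longest transcript, as counted (circles) and with a per-library GC trend removed (squares), for HEK293T SNRPD2KO and PUS7KO against Ctrl. Between SNRPD2KO and Ctrl the 3 genes poorest in G and C move toward 0 (PUS7L to -0.00, PUS10 to 0.01, TRUB1 to -0.20), while RPUSD3 stays at 1.43.

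Other genes of RNA modification were read from 4 lists, described by counts beside the 53.3% of all genes called in HEK293T SNRPD2KO, 49.4% in PUS7KO and 57.2% in HuCCT1 SNRPD2KO, each against Ctrl. In fits of protein-coding genes alone these shares were 57.8%, 52.9% and 65.1%. Of the 6 H/ACA genes, which serve guided pseudouridylation, 2 were higher and 3 lower in HEK293T SNRPD2KO (median -0.11) and the same numbers in PUS7KO (median -0.24), against 0 higher and 6 lower in HuCCT1 SNRPD2KO (median -0.68). Dyskerin (DKC1) averaged 107 ± 0.354 CPM in HEK293T SNRPD2KO, 97.4 ± 5.46 in PUS7KO and 67.8 ± 2.01 in Ctrl (SD, n = 3), log2 fold changes of 0.66 and 0.52 (adjusted p = 2.89e-06 and 3.89e-05). In HuCCT1 it fell by 0.18 (adjusted p = 0.0115), and the assembly factors NAF1 (-1.11) and SHQ1 (-0.93) and the core protein NHP2 (-0.74) fell too. One of the HEK293T falls, NOP10 (-3.41 and -3.30), rested on Ctrl replicate 1, with 768 counts where the other 8 libraries had 26 to 37, and without it the values were -0.22 and -0.11 and did not pass (adjusted p = 0.566 and 0.786). The other genes of the mitochondrial module, RPUSD4 among them, together with RPUSD2 had 4 of 5 higher in HEK293T SNRPD2KO (median 0.33), 1 of 5 higher in PUS7KO (median 0.19) and 3 of 5 lower in HuCCT1 SNRPD2KO (median -0.59). Of the 4 in HEK293T SNRPD2KO, RPUSD4 (0.29, adjusted p = 0.0455) kept its call in 5 of 17 alternatives, and RCC1L (0.33, adjusted p = 0.00413) lost it with the GC trend removed (0.02). NGRN, a member of that module, was higher in HEK293T SNRPD2KO (0.68, adjusted p = 0.000216) and PUS7KO (0.48, adjusted p = 0.00449) and lower in HuCCT1 SNRPD2KO (-1.08, adjusted p = 0.000426).

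Of 61 other transfer RNA modification genes 59 were tested in HEK293T, where 23 were higher and 13 lower in SNRPD2KO (61.0% called, median 0.20) and 18 higher and 13 lower in PUS7KO (52.5% called, median 0.14), shares near the 53.3% and 49.4% of all genes. In HuCCT1 60 were tested, 15 higher and 27 lower in SNRPD2KO (70.0% called, median -0.18). There 57.2% of all genes were called, and 65.1% in a fit of protein-coding genes alone. QTRT1, which inserts queuine, averaged 24.4 ± 4.68 CPM in HEK293T SNRPD2KO, 22.2 ± 2.57 in PUS7KO and 8.17 ± 1.04 in Ctrl (SD, n = 3), and ELP6, an Elongator subunit, 89.5 ± 11.4 CPM in SNRPD2KO, 73.1 ± 7.32 in PUS7KO and 32.5 ± 4.26 in Ctrl. TRMU, which thiolates mitochondrial transfer RNAs, averaged 13.5 ± 0.981 CPM in SNRPD2KO, 12.8 ± 1.83 in PUS7KO and 32.7 ± 2.61 in Ctrl. All 3 passed against Ctrl in both comparisons. In HuCCT1 the larger falls were in YRDC, at 36.2 ± 2.32 CPM in SNRPD2KO and 125 ± 2.57 in Ctrl, and TRMT61A, at 72.3 ± 1.29 CPM in SNRPD2KO and 214 ± 11.04 in Ctrl. Of 11 genes that write or erase N6-methyladenosine in messenger RNA, 2 were higher and 7 lower in HEK293T SNRPD2KO (median -0.40), 1 higher and 7 lower in PUS7KO (median -0.35), and 3 higher, or 1 with the GC trend removed, and 7 lower in HuCCT1 SNRPD2KO (median -0.28). METTL3, its catalytic subunit, was higher in all 3 (1.02, 0.81 and 0.61), and CBLL1, of the writer complex, lower in all 3 (-0.83, -0.67 and -1.19). Between SNRPD2KO and PUS7KO 0 H/ACA genes (lowest adjusted p 0.0933, for SHQ1), 1 of the module list (RPUSD2, 0.50), 6 transfer RNA genes and 0 of the N6-methyladenosine list (lowest adjusted p 0.128, for RBM15B) passed by edgeR, where 4.77% of all genes did. With 1 library left out the transfer RNA list ran from 0 to 12 higher and 0 to 3 lower and the module list from 0 to 2 higher, and RPUSD2 kept its call in 9 of 17 alternatives. For the interaction of line and group 40.7% of all genes were called, 19.8% higher and 20.9% lower. There the H/ACA list had 1 higher (NOP10, 2.86, and -0.35 without HEK293T Ctrl replicate 1) and 5 lower, and the module list 0 and 4. The transfer RNA list had 6 higher and 29 lower and the N6-methyladenosine list 2 and 6.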

How the data were processed

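Total RNA of 15 libraries was sequenced with a stranded, ribosomal RNA-depleting kit, per the labels' protocols. The authors deposited whole-number counts per gene for each line, without normalization, with 0 columns of other samples. The submitters' processing notes name cutadapt 4.2, HISAT2 2.2.1, RSEM and hg38, without roles; the annotation release and use of strand are not given in the sources used here. Total counts were 7944276 to 16795618, so a floor of 3 counts equals 0.172 to 0.343 CPM; it covers counting error only, and replicates differed by more than counting error (chi-square per degree of freedom 3.42 to 12.9).

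Groups came from the titles. The lines were fitted separately with edgeR 4.0.16 under R 4.3.3 (TMM factors, default low-count filter with minimum count 10 and minimum total 15, quasi-likelihood F test, two-sided, Benjamini-Hochberg adjustment over all genes tested, threshold 0.05), and the difference between lines as an interaction over 12 libraries. Biological coefficients of variation were 10.8% in HEK293T, 10.1% in HuCCT1 and 10.5% in the interaction. Positions, exon lengths and GC content came from GENCODE 29, and GC was known for 97.0% and 97.1% of genes tested. The GC trend is a per-library lowess curve (span 0.3) used as an offset. Likeness to PUS7 is the correlation of log2 CPM with a prior count of 2 among genes of at least 5 CPM on average.

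The fits were repeated with upper quartile or RLE factors, no low-count filter, a filter at 1 CPM, DESeq2 1.42.0, limma 3.58.1 voom, the GC offset, a replicate block, protein-coding genes alone, the compared groups alone and with each library left out. All 10 synthases are named, and from each list at most 4 genes of at least 5 CPM with the largest called changes, with some left out of the text; TTLL3, IRAK4, COQ4, SWI5, HYLS1 and CHTF18 are named as neighbours. DKC1 in HuCCT1, and NOP10 in HEK293T with its left-out value, are given beside their list counts. The members and lists were chosen with earlier results of these data known. On simulated counts the test recovered 85.1%, 94.0% and 95.5% of genes set to 2-fold in SNRPD2KO against Ctrl, PUS7KO against Ctrl and SNRPD2KO against PUS7KO (15627 to 15754 genes), 92.5% in HuCCT1 (14984 genes) and 55.2% in the interaction (17586 genes). At 1.5-fold it recovered 58.2%, 46.3%, 52.2%, 59.7% and 19.4%, in the same order. The simulation changed 200 genes at a dispersion of 0.011, fewer genes than any of these comparisons called.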

Additional observations from a re-analysis of the deposited data

Results flagged for a closer look

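For 6 synthases the SNRPD2KO minus Ctrl difference was not the same in HuCCT1 and HEK293T by edgeR's test of the interaction itself. The difference, HuCCT1 minus HEK293T on the log2 scale, was 1.52 for PUS7L (SE 0.21, adjusted p = 1.31e-05), -1.28 for PUS1 (SE 0.16, adjusted p = 4.32e-06), -0.74 for PUS3 (SE 0.13, adjusted p = 0.000219), -0.76 for PUSL1 (SE 0.12, adjusted p = 7.11e-05), -0.77 for TRUB2 (SE 0.12, adjusted p = 4.14e-05) and -1.35 for RPUSD3 (SE 0.13, adjusted p = 2.18e-07). With the GC trend removed PUS7L gave 0.73 and RPUSD3 -1.11, and all 6 passed.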

How the results depend on the processing

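Over the members, 474 values kept their side of the threshold under other settings, 28 gained a call, 26 lost one and 2 changed direction with a call lost. With 1 library left out 331 kept their side, 25 lost a call and 4 gained one. Values called in neither the main fit nor the other setting could change sign unseen by these counts. TRUB1 between PUS7KO and Ctrl (-0.24 to 0.07) and PUS1 between HEK293T SNRPD2KO and Ctrl (-0.05 to 0.41) did. So did PUS10 (-0.17 to 0.29), PUS3 (-0.03 to 0.13) and RPUSD3 (-0.006 to 0.18) between SNRPD2KO and PUS7KO. The line difference of TRUB1 did so with 1 library left out (-0.17 to 0.11). PUS10 between HEK293T SNRPD2KO and Ctrl turned to 0.0061 with the GC trend removed and 0.030 with the replicate block and GC trend removed, CHTF18 there to -0.028 in both, and the line difference of NOP10 ran from -0.35 (without HEK293T Ctrl replicate 1) to 3.38 with 1 library left out. Synthases lower in HEK293T SNRPD2KO than Ctrl numbered 1 with the GC trend removed, with or without the block, and those lower in the interaction 8. With the GC trend removed 51.0% of all genes were called in the first comparison and 38.9% in the interaction. With the block as well these shares were 50.3% and 37.1%. Between SNRPD2KO and PUS7KO 758 genes passed, but 1292 without the low-count filter, 127 with the GC trend removed, 27 with block and GC, 464 with the 2 groups alone, and 22 to 1891 with 1 library left out. There 1 synthase was higher and 1 lower with the GC trend removed, 1 and 0 with block and GC, and 1 to 4 higher and 1 to 2 lower with 1 library left out. Beyond these refits the cause was not tested. Replicate numbers did not pair the libraries (same-number correlations of -0.09 to 0.04 in HEK293T and -0.04 to -0.01 in HuCCT1). With the replicate block 8320, 7674, 560, 8346 and 6933 genes passed, in the order SNRPD2KO against Ctrl, PUS7KO against Ctrl and SNRPD2KO against PUS7KO of HEK293T, SNRPD2KO against Ctrl of HuCCT1 and the interaction; PUS1 between PUS7KO and Ctrl gained its call (adjusted p = 0.0467), and PUS10 there (0.0642) and TRUB2 between SNRPD2KO and PUS7KO (0.0595) lost theirs. PUS10, with 19 to 90 counts, had the widest errors.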
